A study of Mus musculus with 2 samples.

Results

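The genes described here are 32 genes of S phase and DNA replication, listed by symbol and looked up in the gene table of each library, and all 32 were found among the 32285 genes of the files. They were followed in single-cell RNA libraries of lineage-negative c-Kit+ cells, the stem and progenitor fraction, sorted from fetal liver at stage E14.5. One library came from embryos of genotype CD45.2(+) Vav1-iCre Brd9fl/fl, called the Brd9 knockout here, and 1 from CD45.2(+) Brd9fl/fl embryos, the control; both had the strain label C57BL/6, and both carried the floxed Brd9 alleles. Matings paired Vav1-iCre; Brd9fl/fl females with Brd9fl/fl males. Brd9 is a bromodomain subunit of a BAF-type chromatin remodelling complex. Vav1-iCre is active in blood-forming cells, so other cells of the liver keep the gene, and the Cre transgene itself was present in the knockout alone. How many embryos went into either library was not stated. With 1 library per genotype no test between genotypes was possible: each interval below is a 95% interval for counting error, which leaves out the spread between embryos and between cells.

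In cycling cells the replication genes are switched on at the passage from G1 into S phase, when E2F transcription factors are released from the retinoblastoma protein family. The MCM helicase is loaded at origins in G1, is fired with Cdc45 and the GINS complex, and opens the DNA for the polymerases, while ribonucleotide reductase and thymidylate synthase supply the nucleotides. Fetal liver at this age is the main site of definitive red cell production, and its erythroid progenitors divide rapidly while they begin to make haemoglobin.

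The upstream sequences are shown first because most of the members share E2F words there, a feature that the list was not chosen by. RefSeq promoter windows of build GRCm38.p6, each running from 250 bases before to 50 bases after a gene start, matched 25 of the 32 members; Mcm4, Gmnn, Gins2, Rfc2, Tipin, Exo1 and Ccne2 had no entry. The words searched on both strands were, for E2F, TTCCCGC, with the variants TTGGCGC, then TTCGCGC, and lastly TTGCCGC. For the box of that name the word was CCAAT, and for the cell cycle homology region (CHR) of late cell cycle promoters it was TTTGAA or its variant TTCGAA. E2F words that overlap were counted apiece. An E2F word was found for 18 of 25 members (72%), against 12.9% of all 20267 genes with a window and 22.9% of the 48 genes of a G2/M list with a window. The CCAAT word was held by 72% of members, 41.7% of all genes and 77.1% of G2/M genes, and a CHR word by 24% of members, 20.2% of all genes and 77.1% of G2/M genes. Members and G2/M genes thus held CCAAT at similar shares, while E2F words were more frequent in the first set and CHR words in the second. A match is a description of letters and not a shown binding site.

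Of the members that recur in the results, 6 are printed next, 5′ to 3′ on the gene's own strand, as far upstream as the window reaches and stopping before any annotated exon, with E2F words in capitals. Mcm5 (chr8:75109259-75109508, plus strand) and Mcm6 (chr1:128359706-128359955, minus strand) encode helicase subunits, and both hold words that overlap. Pola1 (chrX:93632156-93632405, minus strand), the catalytic subunit of polymerase alpha, is the only X-linked member. E2f8 (chr7:48881597-48881846, minus strand), a repressor of the E2F family, and Rrm2 (chr12:24708004-24708240, plus strand), the S-phase subunit of ribonucleotide reductase, hold 1 word apiece. Nasp (chr4:116627952-116628201, minus strand), a histone H3-H4 chaperone, is shown as 1 of the 7 members in which none of the E2F words was found.

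Mcm5: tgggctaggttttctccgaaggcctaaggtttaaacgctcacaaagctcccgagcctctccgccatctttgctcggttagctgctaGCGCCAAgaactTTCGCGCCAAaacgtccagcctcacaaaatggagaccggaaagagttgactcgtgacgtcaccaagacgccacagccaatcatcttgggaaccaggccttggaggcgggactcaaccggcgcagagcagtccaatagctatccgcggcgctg
Mcm6: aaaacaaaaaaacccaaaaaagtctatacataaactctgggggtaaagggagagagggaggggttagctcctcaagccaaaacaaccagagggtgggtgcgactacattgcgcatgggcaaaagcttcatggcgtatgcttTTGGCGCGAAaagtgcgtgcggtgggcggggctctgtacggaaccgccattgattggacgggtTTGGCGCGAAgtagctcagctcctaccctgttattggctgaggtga
Pola1: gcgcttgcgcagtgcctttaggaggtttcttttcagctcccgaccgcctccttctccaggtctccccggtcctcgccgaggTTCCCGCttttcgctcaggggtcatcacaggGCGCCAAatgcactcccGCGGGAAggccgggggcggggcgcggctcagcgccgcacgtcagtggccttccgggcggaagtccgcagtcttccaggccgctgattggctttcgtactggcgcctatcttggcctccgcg
E2f8: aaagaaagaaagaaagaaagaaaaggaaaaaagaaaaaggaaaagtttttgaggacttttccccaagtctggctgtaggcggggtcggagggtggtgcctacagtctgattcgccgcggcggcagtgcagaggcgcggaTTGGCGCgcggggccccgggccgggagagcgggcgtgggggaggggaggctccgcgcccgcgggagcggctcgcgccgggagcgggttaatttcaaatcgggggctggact
Rrm2: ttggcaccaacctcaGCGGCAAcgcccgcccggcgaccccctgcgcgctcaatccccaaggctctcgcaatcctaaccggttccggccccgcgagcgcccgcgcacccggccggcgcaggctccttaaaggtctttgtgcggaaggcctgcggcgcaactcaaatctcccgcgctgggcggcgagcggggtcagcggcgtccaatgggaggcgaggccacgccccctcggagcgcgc
Nasp: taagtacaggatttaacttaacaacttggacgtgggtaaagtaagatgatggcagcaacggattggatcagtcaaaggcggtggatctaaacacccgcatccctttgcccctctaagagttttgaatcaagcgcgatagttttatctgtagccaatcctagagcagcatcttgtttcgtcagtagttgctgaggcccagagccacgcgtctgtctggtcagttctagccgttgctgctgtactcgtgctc

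The files held 7289 knockout and 7399 control barcodes, of which 6757 and 6860 were kept as cells after filters and removal of 244 and 240 predicted doublets, with medians of 36007 and 38486 UMIs (unique molecules counted) per cell. The libraries shared 16 barcodes. Brd9 itself gave 7.06 CPM (counts per 1000000 UMIs) in knockout cells, against 27.2 CPM in control cells. Kit, the receptor used in the sort, was at 63.8 and 66.95 CPM over all cells, and at 13.4 and 10.99 CPM in the erythroid-like cells with the most alpha-globin. By Xist and Y-linked transcripts, 58.9% of knockout cells and 23.0% of control cells were female, so sex moved with genotype. Transcripts of both sexes were held by 140 and 92 cells. Female cells held at least 3 Xist UMIs and at most 1 Y-linked UMI. Cells with at most 1 Xist UMI were called male, with no Y-linked UMI needed. Female cells with little Xist could be among those called male. Cells were clustered without the members, other cell cycle genes and X- or Y-linked genes, and classes were named from marker genes: 13 of 21 clusters were erythroid-like (4668 knockout and 4776 control cells), the others HSC/MPP-like (239 and 251), MEP-like, that is megakaryocyte-erythroid progenitors (493 and 361), megakaryocyte-like (346 and 205), mast/basophil-like (242 and 170), monocyte-like (224 and 340), granulocyte-like (138 and 367) and hepatoblast-like (8 and 9). One cluster of 399 and 381 cells, led by Slco3a1, Cpa3, Cd34 and Mpo, is called the Cd34-Mpo cluster. It stayed unnamed because stem cell, granulocyte and mast/basophil markers tied among its top 10 genes. The HSC/MPP-like class was mixed, with Tox, Ebf1 and Trbc2 beside Mecom and Hlf among its top 10 genes. Of 8 lymphoid-primed markers, 5 reached 20 CPM in it. At Leiden resolution 1.5, a finer clustering, a separate lymphoid-primed cluster of 121 knockout and 122 control cells appeared.

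Over all kept cells the 32 members together were close in level in the 2 libraries. Their summed level was 5221 CPM in knockout cells against 5244 CPM in control cells, a log2 ratio of -0.0065 (-0.0099 to -0.0030). No member was called in either direction, where a call needs a log2 ratio of at least 0.25 with an interval that leaves out 0 and 20 CPM in either library; of the 6226 genes tested, 2.22% were called higher and 2.23% lower in the knockout. Ratios above 0 were seen for 18 members, against 65.3% of all genes tested, and the median member ratio was 0.01, against 0.03 over all genes. All 32 ratios lay between the 5th and 95th percentiles of all genes (-0.15 and 0.18). Counting error was small at this depth: the interval lay above 0 for 8 members, below 0 for 13 and held 0 for 11, so the sizes below, not the intervals, are what the call rule judged.

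**Figure D1:**
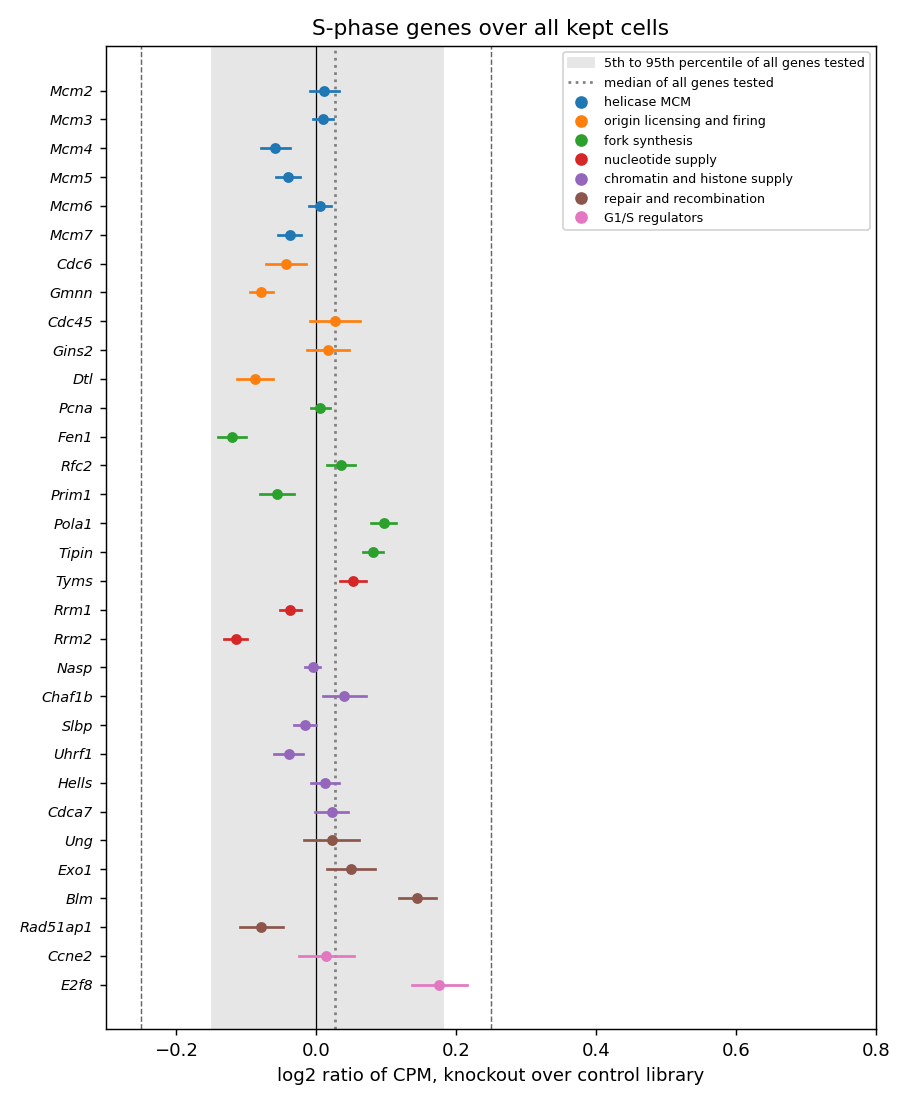
Log2 ratio of CPM, knockout over control library, for each of the 32 members over all kept cells (points, coloured by role, with 95% counting intervals as bars). The grey band is the 5th to 95th percentile of the 6226 genes tested, the dotted line their median and the dashed lines the fold of 0.25. All 32 points lie inside the band, from -0.12 for Fen1 to 0.18 for E2f8.

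The 6 MCM genes, which encode the ring of the replicative helicase, summed to 1258 CPM in knockout and 1271 CPM in control cells (log2 ratio -0.01). Mcm2 was at 142 and 141 CPM, Mcm3 at 289 and 287 CPM, and Mcm6 at 258 and 256 CPM in knockout and control. Mcm4 was at 142 and 147 CPM, Mcm5 at 205 and 211 CPM, and Mcm7 at 223 and 228 CPM. The subunits of the ring thus differed between libraries by between -0.06 (Mcm4) and 0.01 (Mcm2) on the log2 scale. Among origin licensing and firing genes, Gmnn, which encodes the licensing inhibitor geminin, was at 212 and 224 CPM (-0.08), and Dtl, the adaptor by which PCNA-bound proteins such as Cdt1 are sent for destruction, at 93.1 and 98.8 CPM (-0.09). Cdc6, the licensing factor that loads MCM, was at 72.7 and 74.9 CPM (-0.04). Cdc45 and Gins2, which complete the active helicase, were at 48.3 against 47.4 CPM and 66.9 against 66.0 CPM. As a group these 5 genes were at 493 and 511 CPM (-0.05, interval -0.06 to -0.04).

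The 6 fork genes summed to 1224 and 1207 CPM (0.02), but single genes went both ways. Pcna, the sliding clamp, was at 333 and 331 CPM, and Rfc2, a subunit of the clamp loader, at 162 and 158 CPM (0.04). Fen1, the nuclease that trims Okazaki fragments, had the lowest ratio of the list, with 144 CPM in knockout against 157 CPM in control cells (-0.12, interval -0.14 to -0.10). Prim1, the primase subunit that lays the primers, was at 101 and 105 CPM (-0.06). Pola1 was at 195 and 182 CPM (0.10, interval 0.08 to 0.12). It is X-linked, and the share of female cells differed between the libraries. Female over male cells gave Pola1 log2 ratios of -0.014 in the knockout and 0.0075 in the control, with intervals that held 0. The part of sex in the Pola1 ratio was not tested. Tipin, of the fork protection complex, was at 290 and 274 CPM (0.08). Of the nucleotide supply genes, Rrm2 was at 232 and 251 CPM (-0.11, interval -0.13 to -0.10), its partner subunit Rrm1 at 267 and 273 CPM (-0.04), and Tyms, thymidylate synthase, at 178 and 171 CPM (0.05).

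The chromatin and histone supply genes differed little. Nasp was at 514 and 516 CPM, Slbp, which binds the stem-loop of histone messages, at 259 and 262 CPM, and Hells, a chromatin remodeller that acts with Cdca7 on DNA methylation, at 155 and 154 CPM. Cdca7 was at 110 and 109 CPM, Chaf1b, a subunit of chromatin assembly factor 1, at 64.3 and 62.5 CPM, and Uhrf1, which brings the maintenance methyltransferase to new DNA, at 137 and 141 CPM. The 6 genes together were at 1241 and 1244 CPM. Among repair genes, Blm, a RecQ helicase, was at 89.0 and 80.5 CPM (0.14, interval 0.12 to 0.17). Exo1, an exonuclease, was at 52.8 and 51.1 CPM, Ung, the uracil glycosylase, at 39.97 and 39.34 CPM, and Rad51ap1, which acts in recombination, at 63.8 and 67.3 CPM (-0.08). Of the G1/S regulators, Ccne2, cyclin E2, was at 40.8 and 40.4 CPM, and E2f8 had the highest ratio of the list, with 42.1 CPM in knockout against 37.3 CPM in control cells (0.18, interval 0.14 to 0.22). Between female and male cells of the control library, which come from different embryos, member ratios ran from -0.07 to 0.16. Between genotypes they ran from -0.12 to 0.18. In absolute size, 11 of 32 members differed more between the control sexes than between genotypes. The same count over all genes was not taken.

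By class, the sum of members was higher in the knockout library in some progenitors and slightly lower in erythroid-like cells. Of the 7 classes that held 150 cells or more in both libraries, the interval of the sum lay above 0 in 4 and below 0 in 1. The sum was 4171 against 3667 CPM in mast/basophil-like cells (log2 ratio 0.19, interval 0.16 to 0.21), 4019 against 3840 CPM in HSC/MPP-like cells (0.07, 0.04 to 0.09), 4442 against 4258 CPM in the Cd34-Mpo cluster (0.06, 0.04 to 0.08) and 4648 against 4528 CPM in MEP-like cells (0.04, 0.02 to 0.05). It was 4577 against 4532 CPM in megakaryocyte-like cells (0.01) and 4489 against 4524 CPM in monocyte-like cells (-0.01), with intervals that held 0. In erythroid-like cells it was 5468 against 5562 CPM (-0.02, -0.03 to -0.02). Granulocyte-like cells, too few in the knockout to be compared, were at 4176 and 3849 CPM. None of these sums passed the fold of 0.25.

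**Figure D2:**
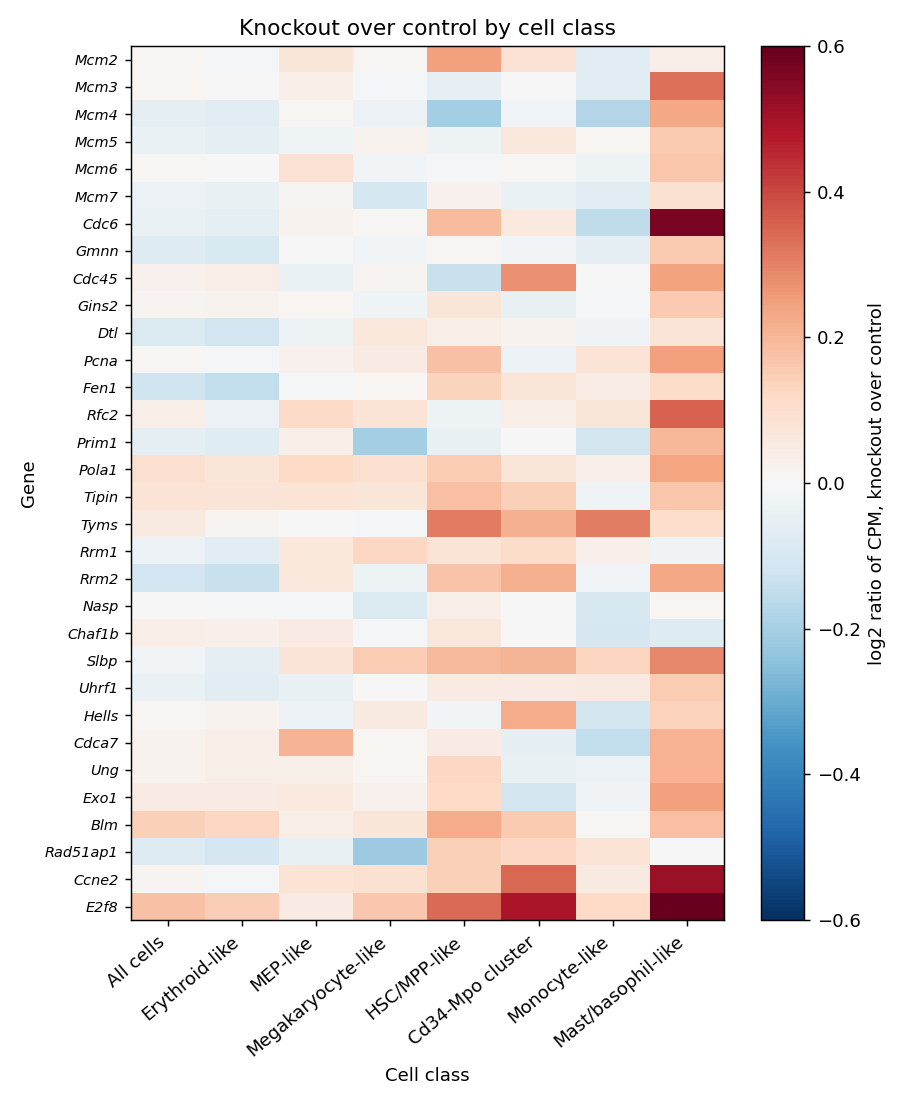
Log2 ratio of CPM, knockout over control library, for each member (rows, by role) in all cells and in the 7 classes that held 150 cells or more in both libraries (columns). Red is higher and blue lower in the knockout; the mast/basophil-like column is red for 29 of 32 members, and E2f8 reaches 0.60 there.

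The mast/basophil-like class stood farthest from 0. Ratios were above 0 for 29 of 32 members there, against 56.0% of genes tested in that class, and 6 members were called higher and 0 lower, against 11.9% and 7.31% of genes. The 6 were E2f8 (89.1 against 58.7 CPM, 0.60), Cdc6 (47.1 against 31.8 CPM, 0.57), Ccne2 (28.3 against 19.8 CPM, 0.52), Rfc2 (328 against 257 CPM, 0.35), Mcm3 (273 against 218 CPM, 0.33) and Slbp (196 against 160 CPM, 0.29). They span licensing, clamp loading, helicase, histone supply and G1/S control, and their intervals are wide where counts are low, as for Ccne2 (0.15 to 0.89, from 167 and 99 UMIs). Pcna stayed just short of the fold, with 225 against 189 CPM. Other measures of this class differed between the libraries as well: median depth was 23229 against 28286 UMIs per cell, Kit was at 113 and 149 CPM (-0.39), and the summed level of the 7 MEP markers was 1171 and 2067 CPM. The summed level of its own 9 mast/basophil markers was 1069 and 1188 CPM, 5 of them at 20 CPM or more, and that of the 11 late erythroid markers 141 and 282 CPM. Their part in the result was not tested. Within female cells (122 and 31) the ratio of the sum was 0.10 and within male cells (115 and 133) 0.27, so it was above 0 in both sexes. No single cell gave more than 2.20% of the members' UMIs of this class.

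In the Cd34-Mpo cluster, 3 members were called higher, E2f8 (48.1 against 34.2 CPM, 0.49), Ccne2 (27.5 against 21.7 CPM, 0.34) and Cdc45 (52.4 against 43.3 CPM, 0.27), and 0 lower, against 7.88% of genes called higher and 3.88% lower in that cluster. Markers of other cell types differed between the libraries there too: the summed level was 416 and 712 CPM for the 7 MEP markers, 90.9 and 217 CPM for the 7 monocyte markers and 415 and 286 CPM for the 9 mast/basophil markers, and their part in the result was not tested. In HSC/MPP-like cells Tyms alone was called higher (131 against 106 CPM, 0.31), against 8.62% of genes called higher and 3.21% lower; E2f8 was at 25.5 and 20.2 CPM there with an interval that held 0. The summed level of late erythroid markers in this class was 183 CPM for the knockout against 554 CPM for the control. That of the 8 lymphoid-primed markers was 401 and 527 CPM, and the part of either in the result was not tested. In monocyte-like cells Tyms was again the only member called (159 against 129 CPM, 0.31), against 8.38% of genes called higher and 5.58% lower; the 8 neutrophil markers summed to 682 and 105 CPM in those cells, and their part was not tested. In MEP-like and megakaryocyte-like cells 0 members were called, against 3.97% and 4.72% of genes called higher and 2.64% and 3.60% called lower. The 7 MEP markers summed to 783 CPM in knockout and 1502 CPM in control MEP-like cells, and their part in the ratio of that class was not tested. In erythroid-like cells 0 were called, against 2.51% higher and 2.33% lower; 12 of 32 ratios were above 0, against 63.8% of genes, from -0.15 (Fen1, 157 against 174 CPM) to 0.15 (E2f8, 40.9 against 36.9 CPM). Blm, E2f8 and Pola1 were the 3 members with a ratio above 0 in every one of the 7 classes, and 0 members were below 0 in all of them. In single classes, from 50.6% (monocyte-like) to 63.8% (erythroid-like) of genes tested were above 0. The share of all genes above 0 in every class was not counted.

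The erythroid-like ratio of -0.02 varied between its clusters and with how the clusters were weighted. Over the 13 erythroid-like clusters the ratio of the sum ranged from -0.17 (5592 against 6290 CPM in a cluster of 469 knockout and 155 control cells) to 0.09 (5940 against 5589 CPM in a cluster of 242 and 563 cells). Ratios were above 0 in 4 clusters and below 0 in 9, with intervals above 0 in 3 and below 0 in 6, and none passed the fold. With the knockout clusters reweighted to the control's shares, an alternative added once the data were seen, the ratio was 0.0087. The part of cluster shares in the erythroid-like ratio was not tested.

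Between classes, the summed level was highest in erythroid-like cells in both libraries. Relative to erythroid-like cells of the same library the sum differed by -0.44 (knockout) and -0.53 (control) on the log2 scale in HSC/MPP-like cells, -0.39 and -0.60 in mast/basophil-like cells, -0.30 and -0.39 in the Cd34-Mpo cluster, -0.28 and -0.30 in monocyte-like cells, -0.26 and -0.30 in megakaryocyte-like cells and -0.23 and -0.30 in MEP-like cells. In HSC/MPP-like cells 21 knockout and 20 control ratios were called lower and 3 higher in each library, 19 lower in both; 35.0% and 36.8% of all genes were called lower and 39.0% and 37.6% higher there. Rrm2 was at 93.2 and 82.7 CPM in HSC/MPP-like cells against 259 and 284 CPM in erythroid-like cells (-1.47 in the knockout and -1.78 in the control), and Cdc6 at 38.1 and 33.4 CPM against 81.7 and 85.1 CPM (-1.10 and -1.35). The order of the classes between HSC/MPP-like and MEP-like cells was close, and with 1 library per genotype it has no replicate check.

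A few members did not follow the sum. Rfc2 was above its erythroid-like level in all 6 other compared classes of both libraries, up to 328 and 257 CPM in mast/basophil-like cells against 141 and 144 CPM in erythroid-like cells (1.22 and 0.83). Cdca7 was higher in HSC/MPP-like cells (146 and 141 CPM against 103 and 99.8 CPM, 0.51 and 0.50), in the Cd34-Mpo cluster (0.52 and 0.62), in megakaryocyte-like cells (0.46 and 0.49) and in monocyte-like cells (0.46 and 0.65), and lower in mast/basophil-like cells (-0.33 and -0.50). Ung was higher in HSC/MPP-like cells (0.39 and 0.30) and lower in mast/basophil-like cells (-0.57 and -0.74). E2f8 was lower in HSC/MPP-like cells (-0.68 and -0.87) and higher in mast/basophil-like cells (1.12 and 0.67), which were low in the sum and high in this repressor.

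Within erythroid-like cells the members increased with alpha-globin. Cells were ordered by the summed CPM of Hba-a1 and Hba-a2, the alpha-globin genes, and split into tertiles at 308 and 2104 CPM; 342 and 329 of the 9444 cells lay within 10% of these limits. The sum of members was 5003 (knockout) and 5073 CPM (control) in the lowest tertile, 5434 and 5549 CPM in the middle tertile and 6057 and 6186 CPM in the highest tertile. The highest over the lowest tertile gave a log2 ratio of 0.28 in the knockout and 0.29 in the control. In this contrast 18 knockout and 21 control ratios were called higher, 18 of them in both, against 20.1% and 18.4% of all genes, and 1 was called lower in both, against 30.5% and 33.4%. Over deciles of alpha-globin the sum went from 4853 to 6285 CPM in the knockout and from 4880 to 6479 CPM in the control.

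**Figure D3:**
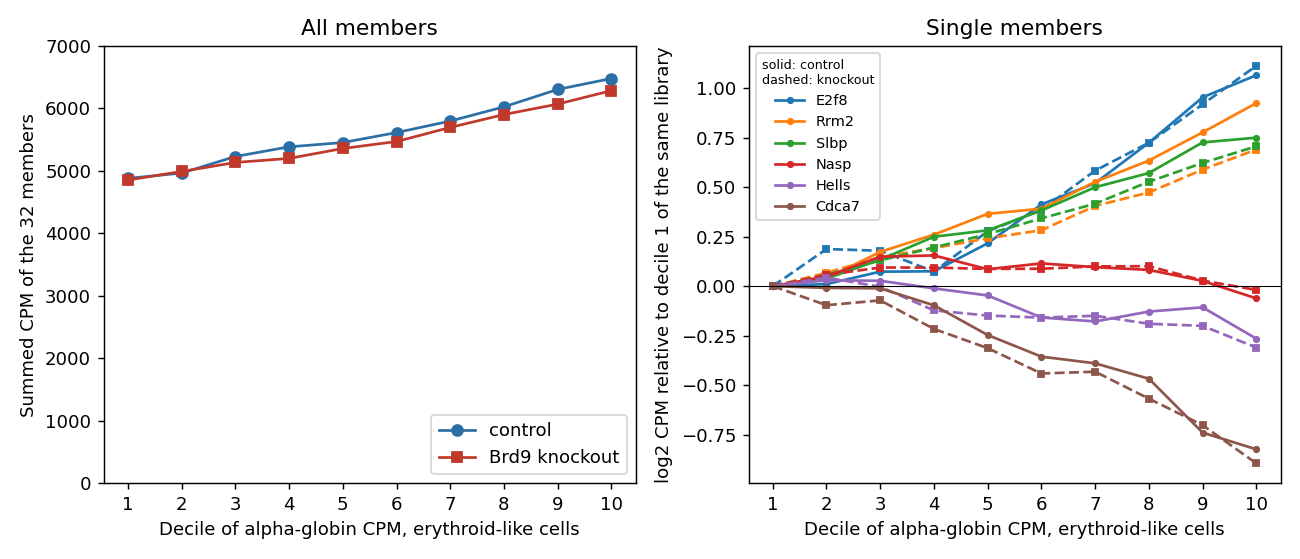
Left, summed CPM of the 32 members in erythroid-like cells by decile of alpha-globin CPM, for the control (circles) and the Brd9 knockout (squares), with the sum going from 4880 to 6479 CPM in the control. Right, log2 CPM of 6 members relative to decile 1 of the same library (solid, control; dashed, knockout): E2f8, Rrm2 and Slbp rise, Nasp stays near 0, and Hells and Cdca7 go down.

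The members called higher in the highest tertile came from every role. E2f8 had the largest ratio (0.80 in the knockout and 0.84 in the control), from 31.9 and 28.4 CPM in the lowest tertile to 55.3 and 50.8 CPM in the highest. Both subunits of ribonucleotide reductase were called, Rrm1 (0.69 and 0.65) and Rrm2 (0.50 and 0.65), as were Slbp (0.53 and 0.57), Cdc6 (0.59 and 0.54), Ccne2 (0.51 and 0.55), Blm (0.63 and 0.51), Mcm4 (0.47 and 0.46), Fen1 (0.43 and 0.50) and Pcna (0.38 and 0.39). The helicase did not move as one, since Mcm5 gave 0.14 and 0.12 and Mcm3 0.20 and 0.19. Cdca7 was the member called lower, from 123 and 119 CPM in the lowest tertile to 79.2 and 77.7 CPM in the highest (-0.64 and -0.61). Hells, its partner, gave -0.24 and -0.19, Ung -0.23 and -0.22, and Nasp -0.01 and -0.05, all short of the fold.

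Between genotypes the erythroid tertiles were alike for the sum, with ratios of -0.02, -0.03 and -0.03 from the lowest to the highest tertile, and 0 members were called in any tertile. The background share called higher was 2.23%, 3.63% and 3.38% of genes in the lowest, middle and highest tertile, and that called lower 2.65%, 2.38% and 2.40%. Rrm2 had the lowest ratio of the members in the highest tertile. It was at 220 and 228 CPM in the lowest tertile (-0.05), 253 and 282 CPM in the middle tertile (-0.16) and 311 and 358 CPM in the highest tertile (-0.20). Split into deciles of alpha-globin instead, 2 members passed the call rule, each in 1 decile. In either decile, 1 of 32 members is a share close to that of all genes called the same way. All-gene shares were not taken for the other deciles. Rrm2 was called lower in the top decile, at 336 and 408 CPM (-0.28, interval -0.33 to -0.22), where 3.14% of genes were called lower and 9.10% higher. E2f8 was called higher in decile 2, at 33.6 and 28.1 CPM (0.26, interval 0.10 to 0.42), where 2.77% of genes were called higher and 3.08% lower. Fen1 gave -0.10, -0.17 and -0.17 over the same tertiles.

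A score was then taken per cell, the members' UMIs per 10000 UMIs after each cell was thinned at random to 18526 UMIs, which left out 367 knockout and 314 control cells that were shallower. The median score was 53.4 in both libraries. Of 6390 scored knockout cells 48.3% (47.1 to 49.6%) lay above the pooled median, against 49.2% (48.0 to 50.4%) of 6546 control cells, with exact binomial intervals. The score is a continuous range, and 2034 of 12936 cells lay within 5% of the median. The middle of the distribution spanned 44.8 to 61.5 (25th to 75th percentile) in both libraries, and the median cell held UMIs of 27 of the 32 members. Among erythroid-like cells alone, 55.8% of knockout and 59.5% of control cells lay above the same median.

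**Figure D4:**
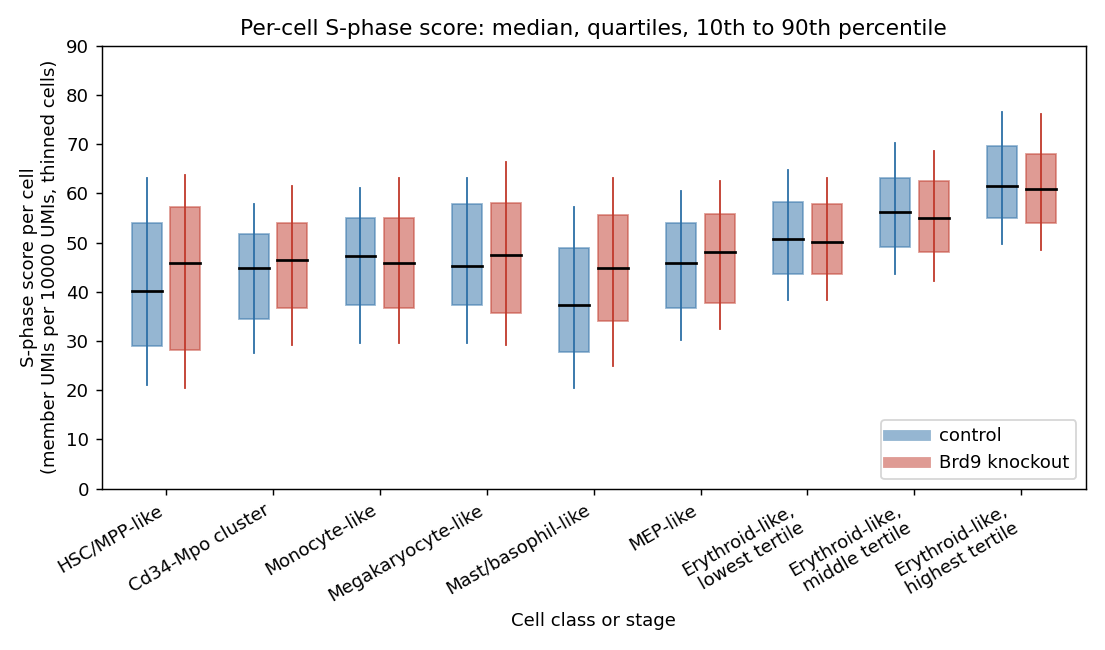
Per-cell S-phase score, the members' UMIs per 10000 UMIs in thinned cells, by class and, for erythroid-like cells, by alpha-globin tertile, in the control (blue) and the Brd9 knockout (red). Boxes give the quartiles, black lines the median and thin lines the 10th to 90th percentile; medians go from 50.2 and 50.7 in the lowest to 61.0 and 61.5 in the highest erythroid tertile in knockout and control.

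Low scores were mostly found outside the erythroid-like classes. Of the 629 knockout and 681 control cells with a low score, 149 and 116 were erythroid-like. A low score, at or below the pooled 10th percentile of 36.2, was held by 38.7% (30.5 to 47.4%) of knockout and 40.7% (32.5 to 49.3%) of control HSC/MPP-like cells, and by 3.3% and 2.5% of erythroid-like cells. In the highest alpha-globin tertile the share was 0.45% and 0.20%. HSC/MPP-like cells also had the widest middle range, 28.1 to 57.2 in the knockout and 29.0 to 54.0 in the control around medians of 45.9 and 40.2, and thinning left out 102 and 111 of them for low depth. Without thinning their medians were 38.5 and 34.3. In mast/basophil-like cells the share with a low score was 32.2% (25.2 to 39.7%) in the knockout and 47.3% (38.5 to 56.2%) in the control, with medians of 44.8 and 37.2; 71 and 39 of these cells were left out as shallow, and the unthinned medians were 42.3 and 33.4. Free RNA in droplets also enters such scores. Hba-a1, a gene of another lineage, was at 37.1 and 54.3 CPM in mast/basophil-like and at 31.4 and 70.7 CPM in HSC/MPP-like cells, and the part of free RNA was not tested. The median G2/M score of mast/basophil-like cells, taken in the same way from the 53 genes of the G2/M list, was 81.0 in the knockout and 87.4 in the control, the other way from the S-phase score.

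Across single erythroid-like cells the members moved together only in part. Pearson correlations were taken over 4574 knockout and 4705 control cells that share a library and a fixed depth, and most members are at a few UMIs per thinned cell, which holds such values near 0. Of 496 pairs of members, 449 were above 0 in the knockout and 448 in the control, with a median of 0.06 in both, and the highest pair was Rrm2 with Slbp (0.31 and 0.34). With the mean of the other members, Rrm2 gave 0.44 and 0.47, Slbp 0.42 and 0.44, Ccne2 0.36 and 0.35 and Pola1 0.34 and 0.31. Rfc2 (0.04 and 0.06), Gins2 (0.07 and 0.04) and Cdca7 (-0.05 and -0.01) were lowest. The mean of the members went with the mean of the G2/M list at -0.15 and -0.20. Hells (-0.33 and -0.31), Ccne2 (-0.23 and -0.25) and Ung (-0.22 and -0.25) were the farthest below 0 with G2/M, while Rrm1 (0.21 in both) and Blm (0.17 and 0.16) were above it. Blm was the 1 member closer to the G2/M list than to its own list in both libraries.

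**Figure D5:**
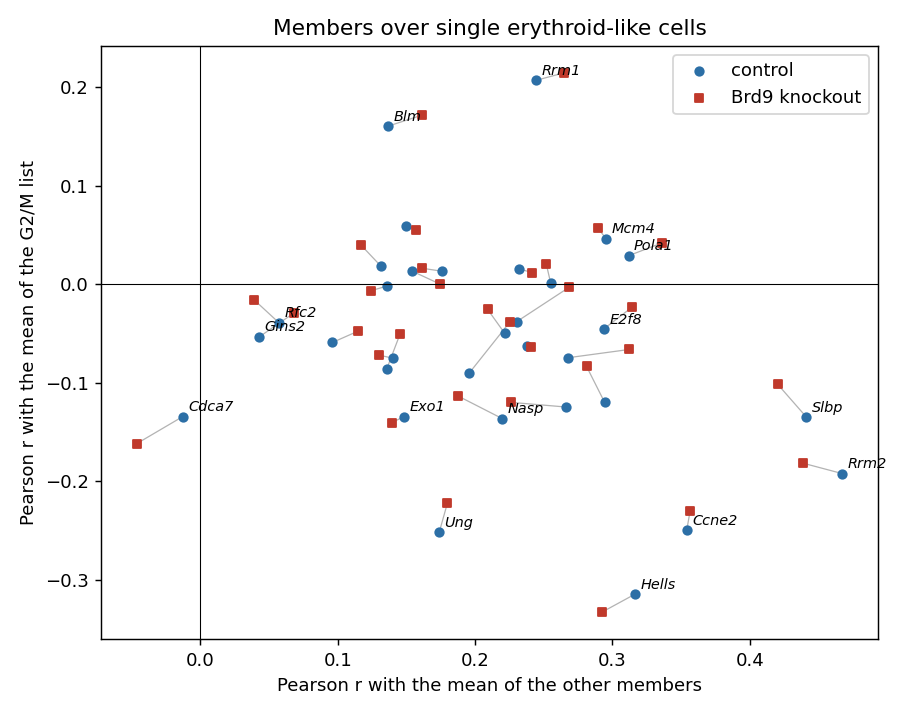
Each member's Pearson correlation over single erythroid-like cells with the mean of the other members (horizontal) and with the mean of the G2/M list (vertical), for the control (circles) and the Brd9 knockout (squares), joined by a line. Rrm2 and Slbp lie farthest right at 0.42 to 0.47, Hells lowest at -0.33 and -0.31, Rrm1 and Blm highest, and the 2 libraries give similar places.

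The genes outside all lists that were most like the members over those cells were largely erythroid genes. Among 3355 candidate genes, ranked by the lower of the 2 libraries' correlations with the mean of the members, the first 12 included Hba-a1, Hba-a2, Sptb, Hbb-bs, Fth1, Hemgn, Dek, Cd24a, Abcb10, Pbx3 and Atad5. Hba-a1 led with 0.39 in the knockout and 0.38 in the control, and Atad5, a PCNA unloader, closed the list with 0.31 and 0.34; the 99th percentile of the candidates was 0.26. Split by quintiles of the S-phase score, median alpha-globin was 223 CPM in the lowest and 3394 CPM in the highest quintile of knockout cells and 220 and 2757 CPM in the control, and median depth before thinning went from 46467 to 34258 UMIs and from 49297 to 36073 UMIs. Depth and stage therefore moved with the score, and their part in these correlations was not tested.

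The rest of the replication machinery was read from lists of other genes. Over all cells, 2.22% of all genes tested were called higher and 2.23% lower. At these shares, lists of this size would hold few calls or none. Of 20 other origin and helicase genes 17 reached 20 CPM and 0 were called between genotypes over all cells, with Cdt1, the licensing factor held by geminin, at 90.5 and 96.4 CPM (-0.09). Of 25 other polymerase and fork genes 24 were tested and 1 was called, Pold2, a subunit of polymerase delta, at 81.1 CPM in knockout against 46.1 CPM in control cells (0.82, interval 0.78 to 0.85). Its partner Pold1 was at 50.05 and 47.26 CPM (0.08). Of 9 tested genes of nucleotide supply 2 were called higher, Shmt1, serine hydroxymethyltransferase (37.1 against 29.9 CPM, 0.31), and Dctd, dCMP deaminase (56.0 against 47.0 CPM, 0.26), and 1 lower, Mthfd1, a folate cycle enzyme (136 against 163 CPM, -0.26); Tk1, thymidine kinase, was at 82.4 and 95.3 CPM (-0.21). For chromatin assembly (9 tested), other G1/S regulators (15) and 15 S-phase genes beyond the members, 0 were called in either direction. The last list shares genes with the others, such as Rpa2 and Ccne1, so these counts overlap. The G2/M list had 0 called of 49 tested and a median ratio of 0.01, against 0.03 over all genes, so the members' own median of 0.01 lay at the same place.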

How the data were processed

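Single cells were captured with the 10x Genomics Chromium 3' chemistry v3.1, per the labels' protocols. Reads were processed with Cell Ranger 7.2.0 on mm10, per the submitters' processing notes, and the authors deposited raw UMI counts, as whole numbers for every gene and barcode. The handling of intronic reads was not stated. From these counts, cells with at least 1000 genes, 2000 UMIs and at most 10% mitochondrial UMIs were kept. Scrublet doublets were removed per library (expected 6%), and cells were clustered in scanpy 1.11.5 (3000 variable genes, 30 components, Leiden resolution 1). Clusters were named from marker genes among their top 30 genes, and otherwise by marker level. Granulocyte precursor and neutrophil lists were merged, and erythroid lists likewise. A cluster stayed unnamed if its top 10 genes held markers of another class and no more of its own. Those naming details were settled after the clusters were seen. The erythroid-like clusters named by marker level held no listed marker of any class among their top 10 genes. UMIs were summed per library and class and given as CPM, and the log2 ratio of CPM carries an exact conditional 95% interval. The ratio code was tested on simulated counts. On 6099 genes it called 100% of genes changed 2-fold and 0% of unchanged ones. These counts had whole-library depth and no spread between cells or embryos. Smaller changes and the smaller classes were therefore not covered.

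Depth was 271350214 UMIs in the knockout file and 292972312 in the control file; intervals cover counting error only. The 32 members, the other lists and the tests were chosen with earlier results of these data known. Named genes were all members, up to 4 per other list by size of ratio, and the 12 genes most like the members; Kit, Brd9 and globins could also be named. Of 32285 gene IDs, 32235 were in GENCODE M21. Alternatives were other scalings, filters, clusterings, doublets kept, 1 sex, class reweighting and unthinned scores.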

Additional observations from a re-analysis of the deposited data

Results flagged for a closer look

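In 4 classes the summed level of the 32 members was higher in the knockout library, while in erythroid-like cells it was lower (log2 ratio -0.02); each was drawn out because the sign was opposite to the erythroid-like one, and the difference between classes was not tested. The log2 ratios were 0.19 (0.16 to 0.21) in mast/basophil-like cells, 0.07 (0.04 to 0.09) in HSC/MPP-like cells, 0.06 (0.04 to 0.08) in the Cd34-Mpo cluster and 0.04 (0.02 to 0.05) in MEP-like cells. Within male cells alone the MEP-like ratio was -0.0012, and the HSC/MPP-like one 0.02 with an interval that held 0. In megakaryocyte-like cells the sexes went opposite ways, with 0.13 in female and -0.07 in male cells. The same held in monocyte-like cells, with 0.05 in female and -0.05 in male cells.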

How the results depend on the processing

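The count of members past the fold over all cells was 0 under all 10 alternatives run. The all-cell ratio of the sum (-0.0065) stayed below 0 under 9 alternatives, from -0.0344 with median-of-ratios scaling to -0.00508 with the stricter cell filter; male cells alone gave -0.0215. The erythroid-like ratio (-0.02) was -0.0515 with median-of-ratios scaling, -0.0348 without the 3 members of highest level, -0.0334 in male cells and 0.00871 with clusters reweighted, the 1 of 11 alternatives above 0. The mast/basophil-like ratio (0.19), whose alternatives were all added after seeing the data, was 0.16 with median-of-ratios scaling, 0.10 in female and 0.27 in male cells, 0.22 without cells of both sexes and 0.15 at Leiden resolution 1.5. The knockout minus control share of cells above the median score was -0.86 points, with an interval of -2.60 to 0.87. Within erythroid-like cells set against their own median (46.3% and 50.4%) it was -4.05 points (-6.09 to -2.00). The value stayed below 0 under all 7 alternatives, but its interval held 0 in each one other than that within erythroid-like cells. The highest over lowest alpha-globin ratio was 0.31 (control) and 0.29 (knockout) with globins left out of the totals. The cause of these shifts was not tested. No paired analysis was possible because each genotype had 1 library and the labels give no replicate numbers; for the same reason no library could be left out. Depth limits the smaller classes, where a member can rest on 99 UMIs (Ccne2 in control mast/basophil-like cells).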
